A study of Mus musculus with 12 samples.

Results

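The RNAs described here are 9 long noncoding RNAs that are abundant in brain: Malat1, Neat1, Meg3, Miat, Rian, Mirg, Snhg11, Pantr1 and Peg13. They were chosen by gene symbol and not by a rule on their values, though earlier results of these data were known. They make up 9 of the 24452 gene symbols and 13 of the 35840 RefSeq transcripts in the count files. RNA was taken from whole somatosensory cortex of male C57BL/6 mice on postnatal day 7 and sequenced as 12 libraries, with 3 libraries in each of 4 groups. The groups were WT mice given saline, WT mice given ethanol, p53 KO mice given saline and p53 KO mice given ethanol, all by intraperitoneal injection. The KO mice carried the Trp53tm1Tyj allele in every cell, and both genotypes were born to heterozygous parents. Part of the tissue was collected by laser microdissection and part with a hole punch, and the labels do not say which library came from which. The comparisons ask how ethanol changed each RNA within a genotype, how the genotypes differed under saline, and whether the response to ethanol differed with genotype. In whole tissue, fewer cells of a type and less RNA per cell cannot be told apart.

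Long noncoding RNAs act as RNA, and many of those listed here stay in the nucleus. Malat1 resides in nuclear speckles, where splicing factors are stored, and Neat1 is the scaffold of paraspeckles and has been described as a target of p53. Miat, also called Gomafu, is a neuronal nuclear RNA that binds splicing regulators through a short repeat. Meg3, Rian and Mirg are expressed from the maternal copy of the imprinted Dlk1-Dio3 domain, where Rian is a host of small nucleolar RNAs and Mirg of microRNAs. Peg13 is expressed from the paternal copy of an imprinted domain within Trappc9. Snhg11 is another host of small nucleolar RNAs, and Pantr1 is transcribed beside the cortical transcription factor gene Pou3f3.

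Sequences are shown for 4 of the RNAs because they carry the features by which these RNAs are known. The promoter of Meg3 is shown because Meg3 had the widest range between libraries. It is the 300 bases from 250 before to 50 after the first RefSeq start of the gene (GRCm38.p6, chr12:109540746-109541045, plus strand). Transcripts NR_027651 and NR_027652 start there. The capitals mark the motif TGACGTCA, a cyclic AMP response element, searched on both strands. NR_003633, the transcript of Meg3 with the most counts, starts further on (chr12:109545398), and its own listed promoter lacks this motif.
Meg3 promoter: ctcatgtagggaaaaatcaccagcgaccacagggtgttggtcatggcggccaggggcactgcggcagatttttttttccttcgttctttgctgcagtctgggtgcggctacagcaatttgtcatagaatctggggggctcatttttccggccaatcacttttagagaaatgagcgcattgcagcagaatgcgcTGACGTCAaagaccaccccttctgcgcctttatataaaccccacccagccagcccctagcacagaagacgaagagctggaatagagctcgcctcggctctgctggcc
The same motif was found in 1 of the 7 promoters that the RefSeq table gives for 6 of the 9 RNAs, and in 1.79% of all 32851 promoters of that length. The p53 half-site, searched on both strands, was found in 0 of the 7 promoters and in 8.36% of all promoters. No promoter was listed for Neat1, Pantr1 or Peg13.

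The repeat of Miat is shown because it is the element that splicing regulators bind. The window is the 300 bases of exon 7 of 7 (mm10, chr5:112217319-112217618, minus strand) that hold the most copies of ACTAAC, and the capitals mark its 4 copies.
Miat exon 7: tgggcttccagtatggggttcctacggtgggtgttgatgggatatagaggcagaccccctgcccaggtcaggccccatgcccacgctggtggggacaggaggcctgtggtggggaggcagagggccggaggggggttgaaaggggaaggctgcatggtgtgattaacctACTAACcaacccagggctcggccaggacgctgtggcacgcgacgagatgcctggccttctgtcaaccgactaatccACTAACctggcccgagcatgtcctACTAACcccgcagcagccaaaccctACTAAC
The whole transcript of 8758 bases holds 11 copies on its sense strand, or 1.256 per kb. Only 0.322% of the 68537 GENCODE transcripts of at least 1000 bases hold as many per kb, and 75.0% hold none.

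The end of Malat1 is shown because this RNA ends in an encoded run of A and not in an added poly(A) tail. The window is 150 bases of its single exon (mm10, chr19:5795924-5796073, minus strand), with the run of 12 A in capitals. The run is followed by the small RNA that is cut from the Malat1 precursor.
Malat1 end: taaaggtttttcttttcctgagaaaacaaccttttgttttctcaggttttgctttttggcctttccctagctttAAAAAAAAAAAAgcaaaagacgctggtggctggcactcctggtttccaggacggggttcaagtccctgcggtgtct
The annotated transcript, 6983 bases long, goes on for 298 bases beyond this run, so the annotation that was counted includes the sequence downstream of the mature end.

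Mirg is shown through the microRNAs within its span, since they are its known products. RefSeq (GRCm38.p6) lists 19 mature sequences for the 10 microRNA genes between the first and last base of Mirg, with 18 different seeds. The pair that shares a seed and 2 of the others are printed here, with the seed (bases 2 to 8) in capitals.
miR-453: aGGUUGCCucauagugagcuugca
miR-496a-5p: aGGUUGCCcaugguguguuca
miR-377-3p: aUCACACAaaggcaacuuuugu
miR-410-3p: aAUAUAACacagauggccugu
The count files hold rows for these 10 genes, and their estimated counts summed to 7.00 over all 12 libraries. From the start of Meg3 to the end of Mirg, a stretch of 208.5 kb on chromosome 12, 61 microRNA genes summed to 15.05 estimated counts, so the host transcripts were measured and the small RNAs were not.

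The total estimated count lay between 0.72 M and 17.1 M per library. Levels are given as normalized CPM, counts scaled to a common library total with TMM factors, which ranged from 0.564 to 1.23. The fewest counts were in KO ethanol replicate 1 (0.72 M) and in WT saline replicate 1 (1.95 M). Least like the rest were WT saline replicate 2, with a mean Spearman correlation of 0.841, and again KO ethanol replicate 1 (0.872). KO saline replicate 3 and KO ethanol replicates 2 and 3 correlated with each other at 0.988 to 0.992, across treatments, yet differed by more than sampling noise (chi-square of 7.38 to 12.7 per degree of freedom). Trp53 itself was counted at 3.67 to 26.2 normalized CPM in the WT saline libraries and at 11.1 to 28.7 in those labelled KO. The counts are per whole transcript and cannot see the deleted exons, so they do not check the genotype labels, which were taken as given. The paper reports genotyping by PCR. It also reports that KO cortex lacked reads in the first part of the gene and kept reads in the later exons. The markers of cerebral cortex and of neurons were detected in all groups. Sums over gene lists are given as plain CPM, scaled to the library total without TMM factors. The summed plain CPM of the cortex markers was 423 to 777 in WT saline and 236 to 695 in WT ethanol. It was 808 to 1077 in KO saline and 496 to 719 in KO ethanol. The order of these sums depends on the scaling, since WT saline replicate 2 (622) had the lowest TMM factor (0.564). The summed plain CPM of the neuron markers was 5034 to 9648 over all libraries.

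Malat1 was among the steadier of the nuclear-body RNAs. Its normalized CPM was 322, 422 and 205 in the WT saline libraries and 335, 459 and 253 in the WT ethanol libraries. It was 181, 234 and 856 in the KO saline libraries and 647, 724 and 817 in the KO ethanol libraries. All groups overlapped with their neighbours in the order of means, and KO saline replicate 3 stood far above the other libraries of its group.

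Neat1, the paraspeckle scaffold, had few reads. It was at 3.09, 3.67 and 0.89 normalized CPM in WT saline and at 15.0, 10.5 and 2.69 in WT ethanol. In the libraries labelled KO it was at 7.46, 5.80 and 26.3 under saline and at 8.36, 33.2 and 33.9 after ethanol. The 3 WT saline libraries held only 6, 20 and 12 counts of it, and KO ethanol replicate 1 held 5. Each KO saline library lay above each WT saline library, whereas the WT groups overlapped.

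Miat varied over a much wider range. It was at 276, 10.5 and 6.54 normalized CPM in WT saline, and at 233, 567 and 202 in WT ethanol. It was at 198, 186 and 1625 in KO saline and at 25.1, 1373 and 1596 in KO ethanol. WT saline replicate 1 was at the level of the WT ethanol libraries, and the other two WT saline libraries and KO ethanol replicate 1 were far below every other library.

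Meg3 was low and high in the same libraries. It was at 1320, 58.8 and 17.2 normalized CPM in WT saline and at 1577, 2615 and 1069 in WT ethanol. It was at 826, 844 and 5689 in KO saline and at 209, 5781 and 7019 in KO ethanol. Its highest library was 409 times its lowest, the widest range of the 9 RNAs, against a median of 5.07 times over the 14739 symbols tested.

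Rian and Mirg, from the same domain, did not share one pattern. Rian was at 835, 1785 and 1228 normalized CPM in WT saline and at 1054, 2243 and 2077 in WT ethanol. It was at 1306, 2033 and 2071 in KO saline and at 647, 1907 and 2276 in KO ethanol. Its range over libraries was 3.52-fold, and all 4 groups overlapped. Mirg was at 25.2, 1.10 and 0.594 in WT saline and at 5.89, 25.1 and 10.0 in WT ethanol. It was at 6.40, 8.61 and 38.1 in KO saline and at 5.01, 28.6 and 28.5 in KO ethanol. Its lowest libraries rest on few reads, with 6 and 8 counts in WT saline replicates 2 and 3 and 3 counts in KO ethanol replicate 1.

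Snhg11 resembled Meg3 and Miat. It was at 695, 165 and 25.1 normalized CPM in WT saline and at 799, 1631 and 666 in WT ethanol. It was at 411, 424 and 2621 in KO saline and at 81.9, 2548 and 3002 in KO ethanol. As with Meg3, WT saline replicate 1 lay within the range of the WT ethanol libraries.

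Pantr1 ran the other way. It was at 127, 860 and 230 normalized CPM in WT saline and at 31.0, 139 and 78.8 in WT ethanol. It was at 95.6, 126 and 108.5 in KO saline and at 264, 107 and 78.0 in KO ethanol. It was highest in WT saline replicate 2, followed by KO ethanol replicate 1, the 2 libraries least like the others. KO saline lay below WT saline without overlap, but the nearest libraries were at 126 and 127.

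Peg13 was the steadiest. It was at 150, 80.3 and 192 normalized CPM in WT saline and at 224, 156 and 110.4 in WT ethanol. It was at 160, 142 and 203 in KO saline and at 107, 162 and 178 in KO ethanol. Its range over libraries was 2.79-fold and no group stood apart.

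**Figure D1:**
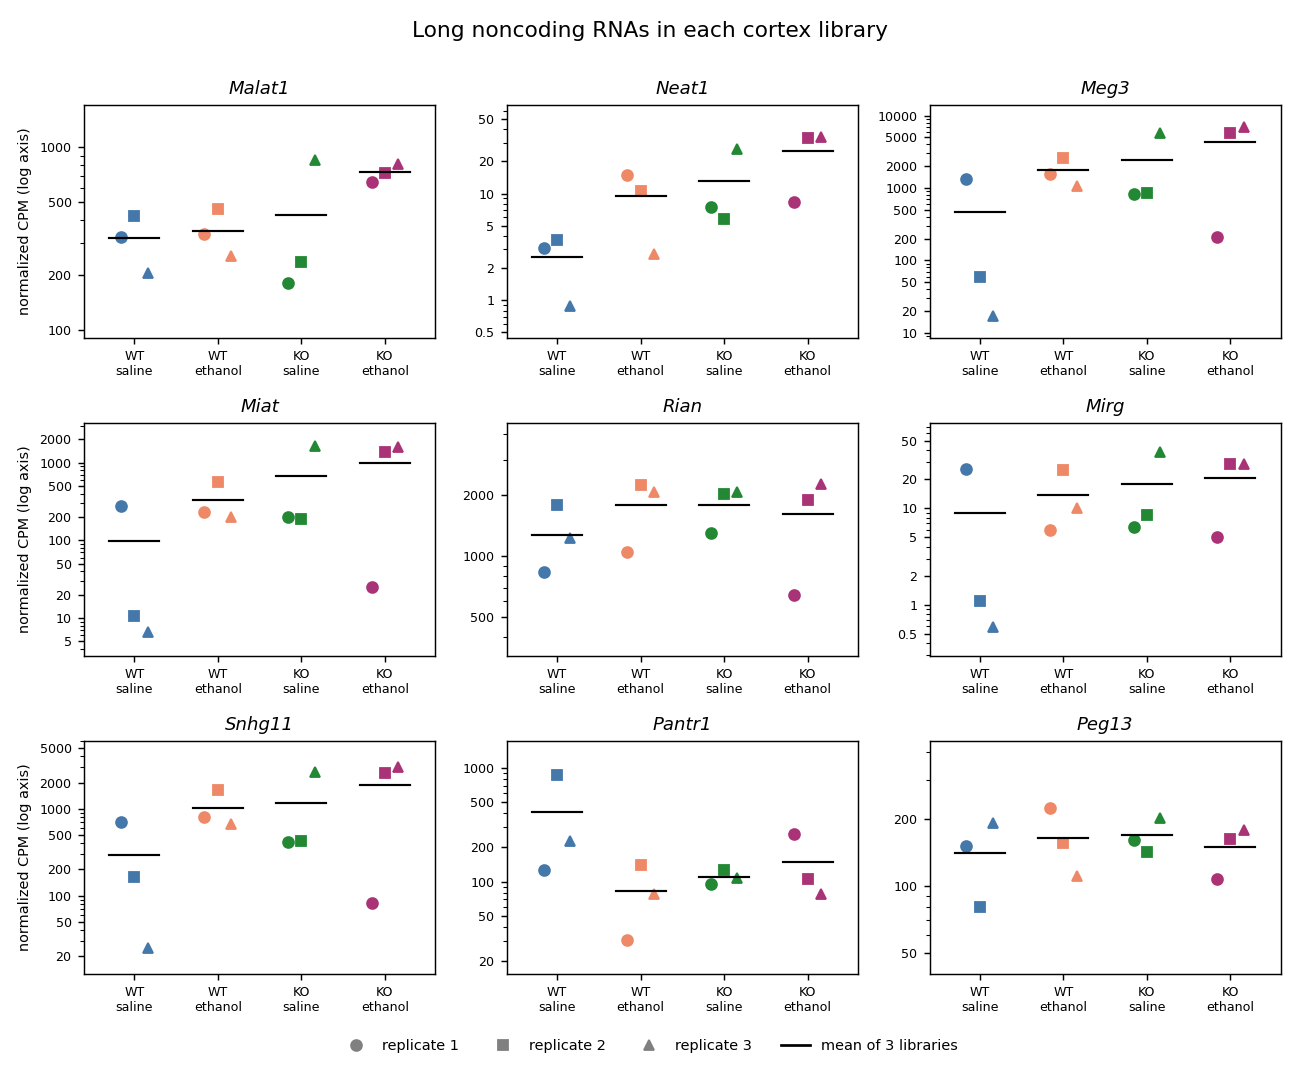
Normalized CPM (log axis) of the 9 long noncoding RNAs in the 12 cortex libraries, by group. Symbols mark replicates 1 to 3 and bars the mean of 3 libraries. Meg3, Miat, Snhg11 and Mirg are low in WT saline replicates 2 and 3, and Pantr1 is highest in WT saline replicate 2.

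The mean level was ordered in the same way for 6 of the RNAs, Malat1, Neat1, Meg3, Miat, Mirg and Snhg11. WT saline was lowest, WT ethanol and KO saline followed, and KO ethanol was highest. For Meg3 the means were 465 ± 741, 1754 ± 788, 2453 ± 2802 and 4336 ± 3627 normalized CPM (SD, n = 3). For Neat1 they were 2.55 ± 1.47, 9.41 ± 6.24, 13.2 ± 11.4 and 25.2 ± 14.6 (SD, n = 3). For each of the 9 RNAs, groups that were neighbours in the order of means overlapped. Each step of the order therefore lay within the spread of the libraries, but groups further apart did not always overlap. Each WT saline library was lower in Neat1 (highest 3.67) than each KO saline (lowest 5.80) or KO ethanol library (lowest 8.36). Each KO ethanol library was higher in Malat1 (lowest 647) than each WT saline (highest 422) or WT ethanol library (highest 459). Between WT saline and KO saline 22.9% of all symbols did not overlap, and for KO ethanol against a WT group this share was not computed. Of the RNAs, 7 were highest in the 3 closely alike libraries, KO saline replicate 3 and KO ethanol replicates 2 and 3. The share of all symbols highest there was not computed, and Meg3, Miat, Mirg and Snhg11, among the 7, moved together.

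Compared per length with the authors' RPKM summed over transcripts, Rian, Pantr1 and Meg3 were the most abundant and Neat1 the least. These values depend on the authors' normalization and on their division of reads among transcripts. The median RPKM over 12 libraries was 532 for Rian, 239 for Pantr1 and 238 for Meg3. It was 99.4 for Snhg11, 45.2 for Malat1, 30.4 for Peg13, 22.1 for Miat, 6.23 for Mirg and 1.95 for Neat1. Rian ranked first or second in every library, and Neat1 was last in all 12. Meg3 ranged from first, in 4 libraries, to sixth, and Pantr1 ranked first in 3 libraries, WT saline replicates 2 and 3 and KO ethanol replicate 1.

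In WT mice Neat1 was higher and Pantr1 lower after ethanol, at the study's level of an adjusted p under 0.30. Neat1 had a log2 fold change of 1.98 ± 0.81 (SE, edgeR quasi-likelihood test, adjusted p = 0.232). Pantr1 had a log2 fold change of -2.29 ± 0.70 (SE, edgeR, adjusted p = 0.191). These 2 of 9 compare with 22.5% of all symbols called in this comparison, so the share of the RNAs called was close to the background. None of the 9 passed an adjusted p under 0.05, as 11 symbols (0.0746%) did, and 2 of the 9 had an unadjusted p under 0.05 in edgeR, beside 18.3% of all symbols. DESeq2 called 2 of them and 27.9% of all symbols.

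Neat1 lost its call in 4 of the 12 fits that left out 1 library, with log2 fold changes of 1.45 to 2.55 and adjusted p of 0.141 to 0.546. Those libraries were WT saline replicates 2 and 3 and WT ethanol replicates 1 and 2, and in these 4 fits 0.476% to 14.2% of all symbols were called. Pantr1 lost its call without WT saline replicate 2, where its log2 fold change was -1.13 and 1.30% of all symbols were called, and without WT ethanol replicate 1 (0.476%). It was -0.83 once trends of each library in length and GC content were taken out, and Pantr1 is the shortest of the RNAs with an annotated length (546 bases).

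The other 7 RNAs did not pass in WT mice. Meg3 had a log2 fold change of 1.92 ± 1.36, Miat 1.79 ± 1.37 and Snhg11 1.81 ± 1.17 (SE, edgeR, adjusted p from 0.403 to 0.484). Mirg was at 0.78 ± 1.13, Rian at 0.48 ± 0.54, Peg13 at 0.22 ± 0.39 and Malat1 at 0.14 ± 0.54. The median of the 9 was 0.78, against 0.06 over all symbols, and groups overlapped for all 9 of them, while 19.6% of all symbols did not overlap.

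The values of Meg3, Miat, Mirg and Snhg11 turned on WT saline replicate 1. Without it the log2 fold change moved from 1.92 to 5.49 for Meg3, from 1.79 to 5.27 for Miat, from 0.78 to 4.04 for Mirg and from 1.81 to 3.41 for Snhg11. All 4 were then called (edgeR, adjusted p of 0.042 to 0.101), and with Neat1 and Pantr1 6 of 9 were, beside 48.7% of all symbols in that fit. Without WT saline replicate 1 and also KO ethanol replicate 1, whose names open with L, 6 of 9 were called beside 55.4% of all symbols. These are the 2 shallowest libraries, and the part of their depth or of their way of collection was not tested.

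**Figure D2:**
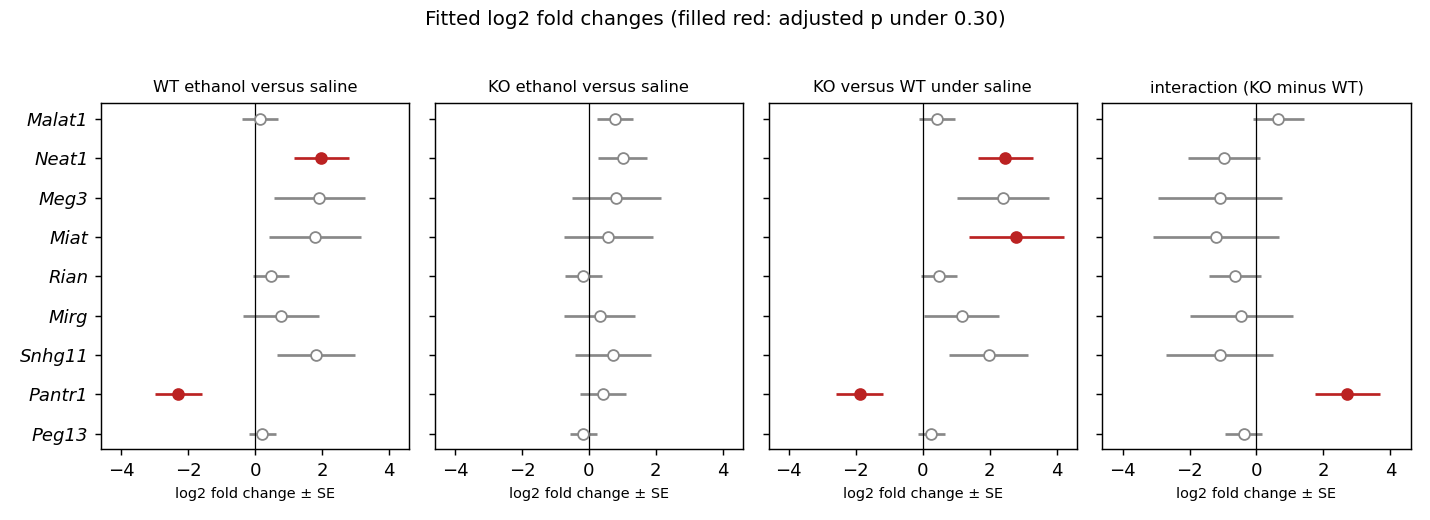
Log2 fold change (x axis) of each RNA in 4 comparisons, with bars of 1 SE from the edgeR fit of 12 libraries. Filled red points have an adjusted p under 0.30, namely Neat1 and Pantr1 in WT ethanol versus saline, Neat1, Miat and Pantr1 in KO versus WT under saline, and Pantr1 in the interaction.

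In the libraries labelled KO, ethanol changed none of the 9 RNAs in the edgeR test, and none of all symbols either (0% called, lowest adjusted p = 0.999). None of the 9 had an unadjusted p under 0.05, which 465 symbols (3.15%) had. DESeq2 called 3 symbols and none of these RNAs. The log2 fold changes were 1.01 ± 0.73 for Neat1, 0.82 ± 1.32 for Meg3, 0.78 ± 0.54 for Malat1, 0.71 ± 1.13 for Snhg11 and 0.58 ± 1.33 for Miat (SE). Pantr1 was at 0.42 ± 0.68, Mirg at 0.33 ± 1.06, Rian at -0.16 ± 0.54 and Peg13 at -0.17 ± 0.40. All groups overlapped, while 10.8% of all symbols did not. Without KO saline replicate 3, the one saline library that resembled KO ethanol replicates 2 and 3, the median of the 9 moved from 0.58 to 1.85, and none was called.

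Under saline, Neat1 and Miat were higher and Pantr1 lower in the libraries labelled KO than in WT. Neat1 had a log2 fold change of 2.47 ± 0.82 (SE, edgeR, adjusted p = 0.177). Miat had 2.79 ± 1.42 (adjusted p = 0.284 in edgeR) and Pantr1 -1.88 ± 0.69 (adjusted p = 0.185 in edgeR). The 3 of 9 called compare with 25.8% of all symbols. Neat1 and Pantr1, 2 of 9, did not overlap between the groups, as did 22.9% of all symbols. None passed an adjusted p under 0.05, as 8 symbols (0.0543%) did, and 2 had an unadjusted p under 0.05 in edgeR, a share of the RNAs near the 19.6% of all symbols.

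Leaving out KO saline replicate 1, 2 or 3, or WT saline replicate 2, left 0 of 9 called. In those 4 fits 0.0599%, 0.0599%, 9.57% and 0.246% of all symbols were called, so the loss of calls was not particular to these RNAs. Miat kept its call in 3 of 12 fits and had a log2 fold change of 0.99 without KO saline replicate 3. Neat1 fell to 1.44 on the log2 scale without that library. Pantr1 was at -0.72 without WT saline replicate 2, and at -0.16 with the trend in length and GC content removed. Without WT saline replicate 1, 6 of 9 were called beside 50.4% of all symbols, and Meg3 and Miat reached 6.01 and 6.30. Without KO ethanol replicate 1, which is in neither group, 5 of 9 were called beside 33.4% of all symbols. The estimate of the spread is shared by all groups.

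Of the others in this comparison, Meg3 was at 2.40 ± 1.38, Snhg11 at 1.97 ± 1.17 and Mirg at 1.17 ± 1.13 (SE, edgeR, adjusted p from 0.341 to 0.578). Rian was at 0.49 ± 0.54, Malat1 at 0.42 ± 0.54 and Peg13 at 0.26 ± 0.39. The median of the 9 was 1.17, against 0.04 over all symbols. This comparison and that of ethanol in WT mice share the 3 WT saline libraries, so their values are not independent.

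The response to ethanol differed with genotype for Pantr1 alone of the 9 at this level. The difference of its log2 fold changes, KO minus WT, was 2.71 ± 0.97 (SE, edgeR, adjusted p = 0.258), from -2.29 in WT to 0.42 in KO. This 1 of 9 compares with 11.1% of all symbols, none of the symbols passed 0.05, and 15.2% had an unadjusted p under 0.05, as did Pantr1. It was lost in 7 of the 12 fits that left out a library, where 0% to 4.89% of all symbols were called. Over the 12 fits the difference was 1.56 to 3.39, and it was 0.51 with the length and GC trend removed. For the other 8 the difference ranged from -1.21 for Miat to 0.64 for Malat1, with SE of 0.56 to 1.88. The median of all 9 was -0.64, against -0.11 over all symbols, and became 0.48 without KO saline replicate 3.

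**Figure D3:**
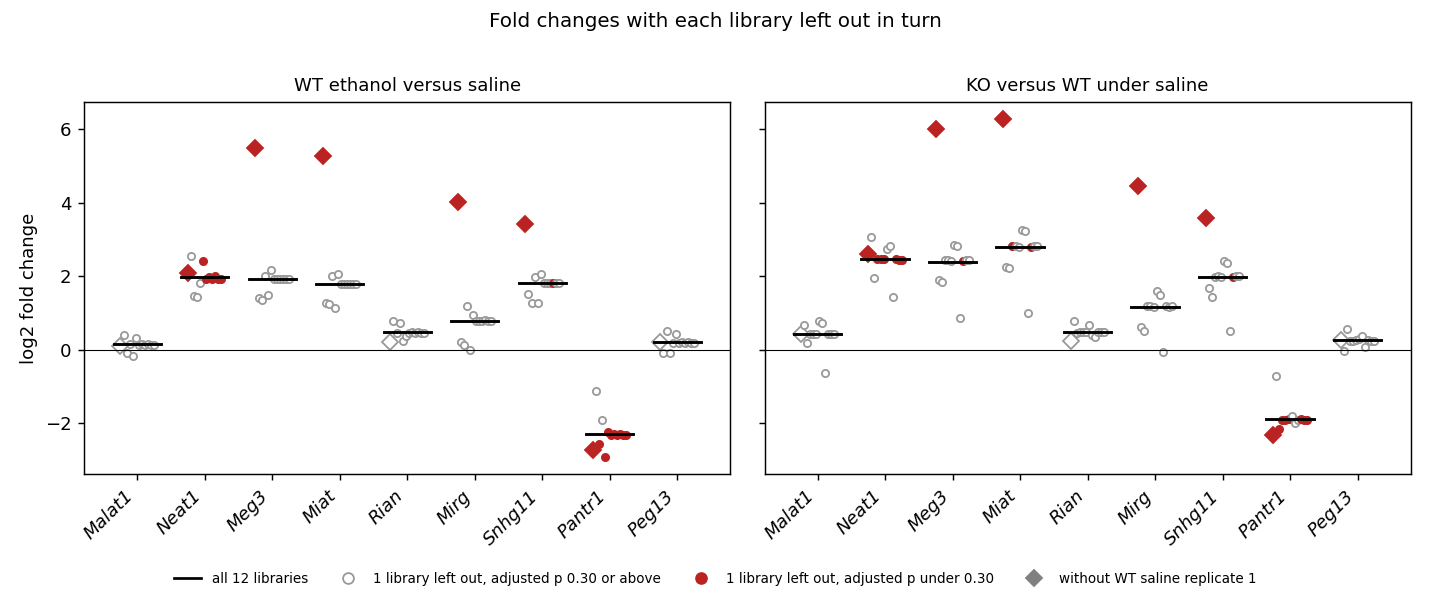
Log2 fold change (y axis) of each RNA with all 12 libraries (black bars) and with each library left out in turn (points), for 2 comparisons that share the WT saline group. Diamonds mark the fits without WT saline replicate 1, where Meg3, Miat, Mirg and Snhg11 reach 3.41 to 5.49 in the left and 3.59 to 6.30 in the right panel.

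The single transcripts showed where reads of Neat1 and Meg3 were assigned. Neat1 has a short form of 3004 bases (NR_003513, chr19:5842296-5845481, mm10) and a long form of 20771 bases (NR_131212, chr19:5824710-5845479). They overlap, so the split of reads between them is uncertain. The long form took 0.0%, 99.8% and 88.6% of Neat1 in WT saline, and 6.69%, 19.7% and 12.2% in WT ethanol. It took 1.39%, 1.19% and 3.64% in KO saline and 70.9%, 4.21% and 6.64% in KO ethanol. The libraries with a high share had few counts of the gene, 20 and 12 in WT saline replicates 2 and 3 and 5 in KO ethanol replicate 1. WT saline replicate 1 held only 6 counts and had a share of 0.0%, so few counts did not always go with a high share. The libraries with a high share also had the highest summed plain CPM of RNAs without a poly(A) tail (119.9, 45.6 and 179.2). What set the share was not tested. The short form was called in WT ethanol versus saline (log2 fold change 3.79 ± 1.39, SE, edgeR, adjusted p = 0.199). The long form was at -0.53 ± 1.17 (edgeR, adjusted p = 0.840) there, and it had an unadjusted p of 0.041 in KO ethanol versus saline in the edgeR fit.

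Meg3 has 3 transcripts. NR_003633 (chr12:109545398-109568651, mm10), the longest with 14548 bases, held 54.2% to 70.5% of the gene's counts in every library. NR_027652 held 14.6% to 43.8%. The third, NR_027651 (chr12:109540996-109568651, 1988 bases), was the least even. It was at 0.00, 6.23 and 0.231 normalized CPM in WT saline and at 395, 21.5 and 182 in WT ethanol. It was at 125, 61.5 and 215 in KO saline and at 6.55, 228 and 139 in KO ethanol. WT saline replicate 1, with 2568 counts of Meg3, had 0.36 counts of this transcript.

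NR_027651 was called in 3 comparisons, with a log2 fold change of 6.46 ± 1.48 for ethanol in WT (SE, edgeR, adjusted p = 0.098) and 5.88 ± 1.45 for KO against WT under saline (edgeR, adjusted p = 0.118). Its interaction was -6.53 ± 1.80 (edgeR, adjusted p = 0.210). The other 2 transcripts of Meg3 passed in none. All 3 lie over the same stretch of the genome, and the part of the authors' division of reads among them was not tested. The 2 transcripts of Miat had almost fixed shares. NR_033657 was called in KO versus WT under saline (2.86 ± 1.43, SE, edgeR, adjusted p = 0.289) while NR_003718 just missed (edgeR, adjusted p = 0.304). Both have the same listed start and end (chr5:112213228-112228949), so the split of reads between them is uncertain, and the difference in their calls does not set them apart. Of the 13 transcripts, 3 were called in WT ethanol versus saline, 0 in KO ethanol versus saline, 4 in KO versus WT under saline and 2 in the interaction, where 21.5%, 0%, 23.8% and 12.1% of all 21715 transcripts tested were called.

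**Figure D4:**
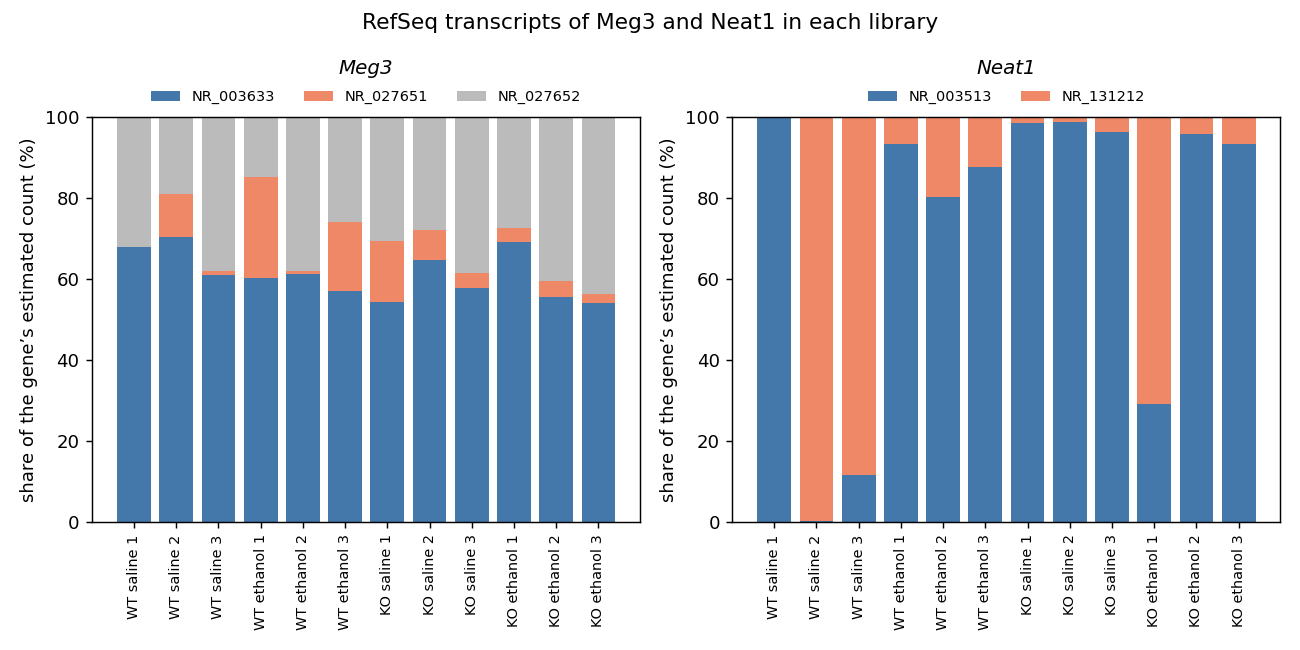
Share of the estimated count of Meg3 and Neat1 (y axis, percent) that was assigned to each RefSeq transcript in the 12 libraries. The long form of Neat1 (NR_131212) takes 99.8%, 88.6% and 70.9% in 3 libraries and less than the short form in the others, and NR_027651 of Meg3 takes most, 25.2%, in WT ethanol replicate 1.

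The spread within groups separated the RNAs into steady and unsteady ones. The SD of log2 normalized CPM within groups was 2.44 for Miat, 2.32 for Meg3, 2.07 for Snhg11 and 1.76 for Mirg. These are above the values of 99.7%, 99.4%, 98.9% and 96.5% of all symbols tested. Neat1 (1.14) and Pantr1 (1.01) lay in between. Malat1 (0.69), Rian (0.66) and Peg13 (0.47) were near or under the median of 0.65. Of the 9, 8 were above that median.

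The unsteady RNAs moved together. Over the 12 libraries, the Pearson correlation of log2 normalized CPM was 0.987 between Meg3 and Miat, 0.965 between Meg3 and Snhg11 and 0.951 between Meg3 and Mirg. It was 0.817 between Meg3 and Neat1. With Rian, of the same domain as Meg3, it was 0.406, and with Pantr1 it was -0.668. These are descriptions over 12 libraries that share groups and differ in depth, and the lowest values of Meg3 and Miat are in WT saline replicates 2 and 3 and KO ethanol replicate 1.

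Among the 10063 symbols with a mean of at least 10 CPM, the genes most like Miat were Traf3ip1 (r = 0.995), Leng8 (0.995) and Rsrp1 (0.987). Those most like Meg3 were Miat, Leng8 (0.987) and Traf3ip1 (0.987). Leng8 was at 113, 6.06 and 3.64 normalized CPM in WT saline and at 455, 465 and 606 in KO saline replicate 3 and KO ethanol replicates 2 and 3. Snhg11 was most like Hnrnph3 (0.978) and Luc7l2, which encode splicing proteins, and Leng8 (0.969). Mirg was most like Lrrfip1 (0.978), Odf2 (0.978) and Ddx55 (0.972).

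The remaining RNAs had other companions. Neat1 was most like Ppip5k1 (0.958), Dido1 (0.925) and Tmem131 (0.917). Rian was most like Snhg5 (0.956), a host of small nucleolar RNAs, Hnrnpr (0.938) and Gpcpd1 (0.920). Pantr1 was most like Mrpl51 (0.969), which encodes a mitochondrial ribosomal protein, Mlx (0.964) and 0610007P14Rik (0.962). Peg13 was most like Clcn6 (0.954), Csnk1d (0.912) and Disp2 (0.912). Malat1 had the least close companions, Alkbh1 (0.877), Thbs3 (0.859) and Gar1 (0.858).

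**Figure D5:**
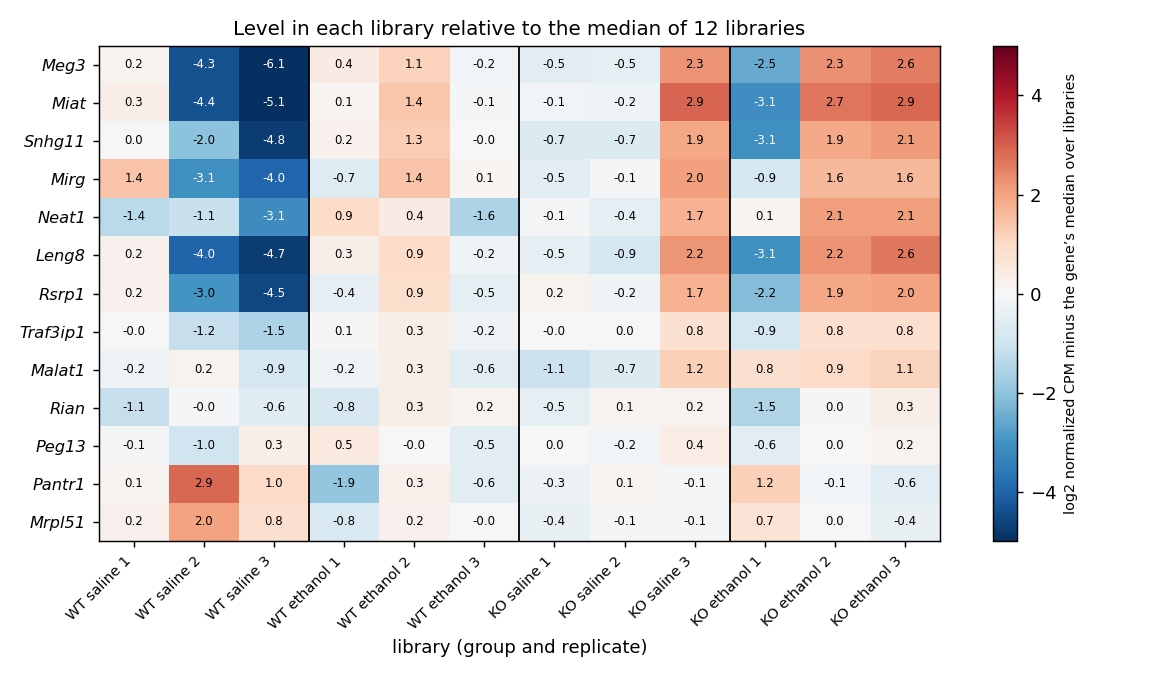
Log2 normalized CPM of the 9 RNAs and of 4 genes like them (Leng8, Rsrp1, Traf3ip1 and Mrpl51), minus each gene's median over the 12 libraries. Columns are libraries, and black lines part the 4 groups. Meg3 and Miat are lowest in WT saline replicates 2 and 3, where Pantr1 and Mrpl51 are high.

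Among speckle proteins, paraspeckle proteins and binding partners of Miat, the share called was not above that of all symbols. Of 15 nuclear speckle proteins, 3 rose in WT ethanol versus saline, where 22.5% of all symbols were called in either direction. In KO versus WT under saline 2 were higher, where 25.8% were called. Pnn was at 1.79 ± 0.72 and Srrm2 at 1.66 ± 0.74 in the first comparison (log2 fold change ± SE, edgeR, adjusted p of 0.225 and 0.253). The third, Sf3b1, was at 1.07 ± 0.51 (SE, edgeR, adjusted p = 0.278). The medians of the list were 0.47 and 0.61, against 0.06 and 0.04 over all symbols. Of 12 paraspeckle proteins, only Nudt21 was called, and it was lower in both comparisons (-1.22 ± 0.47 and -1.38 ± 0.47). None of 4 splicing factors that bind Miat was called (Qk, Sf1, Celf3 and Srsf1).

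Of 8 genes beside the 9 RNAs, 6 could be tested. Kcnk9 and Ralgapb, which lie beside Peg13 and Snhg11, were higher in KO than in WT under saline (1.69 ± 0.76 and 0.72 ± 0.34, log2 fold change ± SE, edgeR, adjusted p of 0.241 and 0.260). These 2 of 6 compare with 25.8% of all symbols called. Pou3f3, beside Pantr1, was not called and was at -0.61 ± 0.40 in WT ethanol versus saline. The protein-coding genes of the Dlk1-Dio3 domain, Dlk1, Rtl1 and Dio3, were too low to test, with summed plain CPM of 0 to 7.60 per library. In KO ethanol versus saline no gene of any list was called.

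Among 34 other long noncoding RNAs in the files, 29 could be tested. In WT ethanol versus saline 7 rose and 5 fell, beside 22.5% of all symbols called. In KO versus WT under saline 4 were higher and 7 lower, beside 25.8% of all symbols. The median was -0.11 in the first and -0.03 in the second, against 0.78 and 1.17 for the 9 RNAs described here. Rmrp, which has no poly(A) tail, was at 7.71, 77.0 and 9.36 normalized CPM in WT saline and at 0.34, 2.63 and 1.02 in WT ethanol. Together, RNAs without a poly(A) tail summed to 25.6 to 119.9 plain CPM in WT saline and 16.6 to 20.7 in WT ethanol. They summed to 10.4 to 20.7 in KO saline and 31.7 to 179.2 in KO ethanol. The highest sums were in KO ethanol replicate 1 (179.2) and WT saline replicates 2 and 3 (119.9 and 45.6). Meg3 and Miat were lowest in these same libraries, and Pantr1 was highest in them. The part of RNAs without a poly(A) tail in the values of the 9 RNAs was not tested.

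Markers of other cells differed widely between libraries of the same group. The summed plain CPM of 5 choroid plexus genes was 4.10 to 108.1 in WT saline and 23.5 to 5786 in WT ethanol. It was 28.2 to 2544 in KO saline and 1.39 to 2663 in KO ethanol. The groups overlapped, and single libraries set their upper ends. Ttr is given in normalized CPM, which can exceed these plain sums. It was at 2.06, 14.5 and 108.5 in WT saline and at 4919, 55.5 and 19.9 in WT ethanol. With Clic6 and Kl it was called higher in this comparison (3 of 5, edgeR, adjusted p of 0.218 to 0.299), where 22.5% of all symbols were called. The oligodendrocyte list summed to 101 to 395 plain CPM in WT saline and to 335 to 700 in WT ethanol, which overlap. Of its 6 genes 1 was called, Pdgfra, beside the same 22.5% of all symbols, and Mog and Olig1 were at -1.98 and -0.33 on the log2 scale. In the same comparison 1 of 8 cortex markers, Emx1, and 1 of 6 neuron markers, Tubb3, were called lower and none higher. They were at -1.73 ± 0.54 and -1.38 ± 0.57 (log2 fold change ± SE, edgeR, adjusted p of 0.195 and 0.235). In KO versus WT under saline Bcl11b was called higher and Emx1 and Tubb3 lower, beside 25.8% of all symbols. The part of these cell types in the values of the 9 RNAs was not tested.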

How the data were processed

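Stranded RNA-Seq of whole somatosensory cortex was analysed in 12 libraries of 4 groups (3 each), grouped by the labels. The labels call the libraries mRNA-seq and the methods total RNA-Seq. The authors filtered reads by quality, aligned them to mm10 with Bowtie2 within TopHat, and used Partek Flow to quantify RefSeq transcripts. Its version and settings are not given in the sources used here. The deposited estimated counts per transcript are not normalized. The RPKM values were also made by the authors. They look quantile normalized, which was not tested and which the methods do not state.

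Counts were summed per symbol, rounded, and fitted in edgeR 4.0.16 (R 4.3.3) with its default filter (14739 symbols and 21715 transcripts kept, all 9 RNAs among them), TMM factors, 1 mean per group and two-sided quasi-likelihood tests with Benjamini-Hochberg adjustment over all features. Calls used an adjusted p under 0.30, the study's level, and were also counted at 0.05. Nothing ties libraries to separate litters or dates, so p-values measure the spread between these samples. Depth was 0.72 M to 17.1 M counts, and 3 libraries a group limit the precision.

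The RNAs, gene lists and tests were chosen with earlier results of these data known. All 9 RNAs were named in all comparisons, with transcripts of at least 10 mean counts, the 3 genes per list with the smallest p, and the 3 symbols most correlated with each RNA. Alternatives were DESeq2 1.42.0, library size alone, 2 other filters, limma 3.58.1 on log2 RPKM with a pseudocount of 1 or 0.1, the letter that opens a library name (as covariate, or leaving out the 2 with L), length and GC trends removed (splines with 5 degrees of freedom), only the groups compared, the most abundant transcript, and each library left out. Leaving out the 2 libraries least like the others was chosen after seeing the data. All fits were first tested on simulated counts. Promoters and microRNAs are from RefSeq (GRCm38.p6), and transcripts from GENCODE. Figures used Python 3.11.15 and matplotlib 3.10.9.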

Additional observations from a re-analysis of the deposited data

Results flagged for a closer look

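The ethanol log2 fold change of Pantr1 differed between the genotypes in a test of the difference itself (KO minus WT 2.71, edgeR quasi-likelihood test, adjusted p = 0.258). Pantr1 was at 127, 860 and 230 normalized CPM in WT saline, 31.0, 139 and 78.8 in WT ethanol, 95.6, 126 and 108.5 in KO saline and 264, 107 and 78.0 in KO ethanol. Its highest levels came from WT saline replicate 2 and KO ethanol replicate 1, and without both the difference was 0.85 and was not called.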

How the results depend on the processing

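No paired analysis was possible because the groups share no replicate number in the labels. Of the 9 RNAs, 2 were called for ethanol in WT, 0 for ethanol in KO, 3 for KO against WT under saline and 1 in the interaction. The count for ethanol in KO was 0 in every alternative run. With limma on RPKM, 0 were called in each comparison at both pseudocounts (at most 3.56% of all symbols), and the median for ethanol in WT was 1.77 with 0.1. With at least 10 counts in every library, which Neat1 lacks, 1 was called for ethanol in WT (27.4% of all symbols). With only the groups compared, it was 0 (0.278%). Without the 2 libraries named with L the counts were 6, 6 and 4 (WT, KO against WT, interaction; 55.4%, 56.4% and 28.9% of all symbols), with medians of 2.07 and 2.57 in the first 2. With that letter as covariate they were 1, 5 and 0 (22.0%, 27.3% and 0%), with medians of 1.78 and 2.27. With length and GC trends removed, 1 was called for KO against WT and 0 in the interaction (14.7% and 0.688% of all symbols), and without the 2 libraries least like the others (chosen after seeing the data) these counts were also 1 and 0 (17.6% and 0.193%). Leaving out 1 library gave 0 to 6 calls for ethanol in WT (0.476% to 48.7% of all symbols), 0 to 6 for KO against WT (0.0599% to 50.4%) and 0 to 4 in the interaction (0% to 33.8%). The medians then ranged from 0.24 to 2.09 for ethanol in WT, 0.19 to 1.85 for ethanol in KO, 0.35 to 2.62 for KO against WT and -1.06 to 0.48 in the interaction.

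Directions that turned were all of values not called. With length and GC trends removed, Malat1, Rian and Peg13 were at -0.29, -0.062 and -0.12 for ethanol in WT, Rian and Pantr1 at 0.58 and -0.32 for ethanol in KO, Rian and Peg13 at -0.10 and -0.072 for KO against WT, and at 0.64 and 0.060 in the interaction. Without the least alike libraries, Peg13 was at -0.10 for ethanol in WT and -0.039 for KO against WT, Rian and Pantr1 at 0.20 and -0.27 for ethanol in KO, and Mirg and Peg13 at 0.43 and 0.10 in the interaction. Without the libraries named with L, Rian and Pantr1 were at 0.20 and -0.27 for ethanol in KO, and Rian at 0.022 in the interaction. With the letter as covariate Rian was at 0.082 for ethanol in KO. Pantr1 was at -0.10 there with limma. By library size alone, NR_131212 of Neat1 was at 0.27 for ethanol in WT and NR_027651 of Meg3 at 0.018 for ethanol in KO, and the median of all symbols moved to 0.49 for ethanol in WT.

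Leaving out 1 library gave, for ethanol in WT, -0.16 to 0.39 for Malat1, -0.017 to 4.04 for Mirg and -0.10 to 0.51 for Peg13. For ethanol in KO it gave -0.081 to 1.59 for Mirg, -0.25 to 0.77 for Pantr1, -0.29 to 0.021 for Peg13 and -0.48 to 0.21 for Rian. For KO against WT it gave -0.64 to 0.79 for Malat1, -0.078 to 4.45 for Mirg and -0.037 to 0.56 for Peg13. In the interaction it gave -4.68 to 0.48 for Meg3, -4.69 to 0.61 for Miat, -3.69 to 0.81 for Mirg, -1.54 to 0.093 for Neat1 and -2.71 to 0.39 for Snhg11. The causes were not tested. Counts of 3 to 20 in the lowest libraries limit Neat1 and Mirg.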
